A study of Homo sapiens with 6 samples.

Results

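The genes described here are 38 members of the tRNA charging machinery: 19 cytosolic aminoacyl-tRNA synthetase genes, 16 mitochondrial ones and the 3 scaffold genes AIMP1, AIMP2 and EEF1E1. They were taken by name, as the members of a gene family and not by a threshold on a value, from the 58219 genes of the tables. All 38 were found and all 38 had enough reads to be among the 15765 genes tested. The measurements are RNA sequencing of U2OS cells, a human osteosarcoma line. Cells of 3 control libraries expressed a short hairpin RNA (shRNA) with a scramble sequence, and cells of the remaining 3 libraries an shRNA against E4F1. Both groups were grown in DMEM with 10% FBS, infected for 24 h, selected with puromycin for 48 h and extracted 72 h after infection, so vector, infection and selection were common to all libraries. The labels give 1 shRNA per group and 3 independent pools of cells, and p-values measure only the spread between those pools.

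Aminoacyl-tRNA synthetases join each amino acid to its tRNA and so supply the ribosome. The cytosol and the mitochondrion mostly use separate enzymes, all encoded in the nucleus, while GARS1 and KARS1 each serve both compartments. In the cytosol several synthetases sit in one large assembly, the multisynthetase complex, held together by AIMP1, AIMP2 and EEF1E1 (also called AIMP3). ATF4, the transcription factor of the amino acid response, is known to raise many cytosolic synthetase genes together with genes of amino acid synthesis and transport. E4F1 is a zinc finger protein known for its control of genes of pyruvate metabolism and of the DNA damage checkpoint.

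The libraries held 14947085 to 16892139 reads in genes on the strand of the transcript. E4F1 itself had 233, 286 and 297 reads in control libraries 1 to 3 and 51, 53 and 41 reads in E4F1 shRNA libraries 1 to 3. That is 17.4 ± 1.76 against 2.94 ± 0.384 CPM (read counts scaled to library size, here by the trimmed mean of M-values, TMM; mean ± SD, n = 3), a 5.92-fold lower level (edgeR's quasi-likelihood test, adjusted p = 7.66e-10). COL1A1 and SPARC, matrix genes of bone-forming cells, were abundant in every library, but COL1A2, a further collagen gene, had only 4 to 16 reads. Of the blood markers, the T cell gene CD3E had no read in any library and PTPRC, the pan-leukocyte gene, had 24 to 41 reads. Of the 15765 genes, 28.9% passed an adjusted p of 0.05, with 14.4% higher and 14.4% lower after E4F1 shRNA. The median log2 fold change over all genes was -0.0096. In bulk RNA, more cells of one state and more RNA per cell cannot be told apart.

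Some of the cytosolic synthetase mRNAs rose after E4F1 shRNA, and no mitochondrial one did. Of these calls, NARS1 alone was also made when a cell cycle score was added to the fit (1 cytosolic gene rose and 0 mitochondrial genes fell), as described further on. Of the 19 cytosolic genes, 8 rose and 0 fell, with 9 higher and 3 lower at an unadjusted p under 0.05. Of the 16 mitochondrial genes, 0 rose and 2 fell, with 0 higher and 5 lower at an unadjusted p under 0.05. DESeq2 gave the same counts for both sets, 8 and 0 against 0 and 2. None of the 3 scaffold genes passed, with 1 higher and 1 lower at an unadjusted p under 0.05 and 0 called by DESeq2. The 10 members called are 26.3% of the 38, near the 28.9% of all genes, so the number called over all 38 says nothing particular about them. By set, 42.1% of cytosolic genes rose and 12.5% of mitochondrial genes fell, where 14.4% of all genes rose and 14.4% fell. The members were chosen with earlier results of these data known, so these shares are not independent evidence. The called cytosolic genes were all higher and the called mitochondrial genes both lower; the difference between the sets was not tested. The median log2 fold change was 0.12 for cytosolic genes (range -0.17 to 0.40), -0.0076 for mitochondrial genes (range -0.40 to 0.089) and -0.047 for the scaffold genes. The changes were small: the cytosolic genes that rose did so by 1.12-fold to 1.32-fold.

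**Figure D1:**
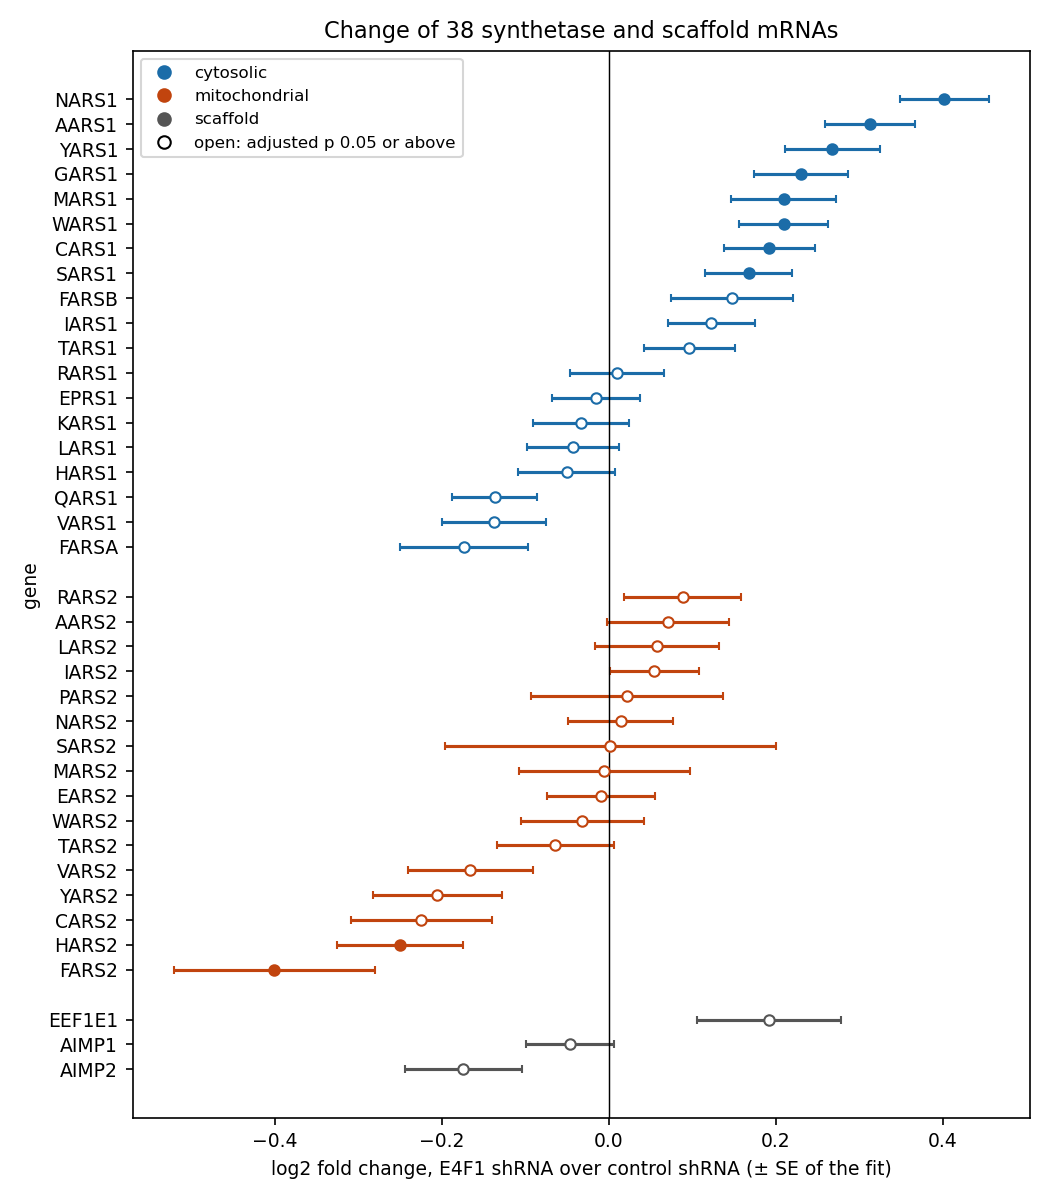
Log2 fold change of each member (E4F1 shRNA over control shRNA), where bars are standard errors of the fit; blue is cytosolic, orange mitochondrial and grey scaffold, and filled points have an adjusted p under 0.05. The 8 filled cytosolic points lie between 0.17 and 0.40, and the 2 filled mitochondrial points, FARS2 and HARS2, lie at -0.40 and -0.25.

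NARS1, the asparaginyl-tRNA synthetase, had the largest increase among the members. Its level was 226, 239 and 218 CPM in the controls and 304, 308 and 291 CPM after E4F1 shRNA. Every E4F1 shRNA library stood above every control library. The log2 fold change was 0.40 (SE 0.053, adjusted p = 3.37e-05, edgeR), a 1.32-fold higher level. The gene (ENSG00000134440) lies on chromosome 18, 57600656 to 57622213 on the minus strand (GRCh38, GENCODE 29), and its count covers all of its exons. AARS1, which charges alanine and edits mischarged tRNA, followed. Its controls were at 167, 184 and 169 CPM and its E4F1 shRNA libraries at 210, 220 and 217 CPM, without overlap. Its log2 fold change was 0.31 (SE 0.054, adjusted p = 0.000384, edgeR).

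YARS1, the tyrosyl enzyme, which also has a secreted cytokine form, was at 245, 270 and 241 CPM in the controls and 313, 309 and 287 CPM after E4F1 shRNA. The groups did not overlap and the log2 fold change was 0.27 (SE 0.057, adjusted p = 0.00213, edgeR). GARS1, the glycyl enzyme of both compartments, was at 574, 608 and 560 CPM in the controls and 723, 677 and 644 CPM after E4F1 shRNA. It rose by 0.23 on the log2 scale (SE 0.056, adjusted p = 0.00536, edgeR), again without overlap. KARS1, the lysyl enzyme that also serves both compartments, had a log2 fold change of -0.03 (adjusted p = 0.701). The difference between the changes of GARS1 and KARS1 was not tested.

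WARS1, the tryptophanyl enzyme, was at 108, 108 and 105 CPM in the controls and 124, 128 and 119 CPM after E4F1 shRNA. The spread within each group was small and the groups did not overlap (log2 fold change 0.21, SE 0.053, adjusted p = 0.00687, edgeR). CARS1, which charges cysteine, was at 107, 111 and 112 CPM against 131, 125 and 120 CPM (log2 fold change 0.19, SE 0.054, adjusted p = 0.0135, edgeR). SARS1, the seryl enzyme, was at 261, 267 and 269 CPM against 306, 306 and 282 CPM (log2 fold change 0.17, SE 0.052, adjusted p = 0.0227, edgeR). Both sets of libraries were apart in each of these genes. MARS1, the methionyl enzyme, was at 264, 314 and 274 CPM in the controls and 335, 339 and 311 CPM after E4F1 shRNA. Its log2 fold change was 0.21 (SE 0.063, adjusted p = 0.0191, edgeR), but its groups overlapped, since control library 2 lay above E4F1 shRNA library 3. MARS1 also shares exon sequence with DDIT3, the gene of CHOP, on the opposite strand; the counts used here keep strands apart.

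The calls of CARS1, SARS1 and MARS1 were lost when certain single libraries were left out. Without control library 1 their adjusted p was 0.0506, 0.0685 and 0.0935, without E4F1 shRNA library 1 it was 0.0681, 0.0819 and 0.0586, and without E4F1 shRNA library 2 it was 0.051, 0.102 and 0.0891. The count of cytosolic genes that rose was then 5 in each of these fits, and MARS1 was also lost without control library 3 (adjusted p = 0.0615). Without control library 2, and likewise without E4F1 shRNA library 3, 10 cytosolic genes rose.

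**Figure D2:**
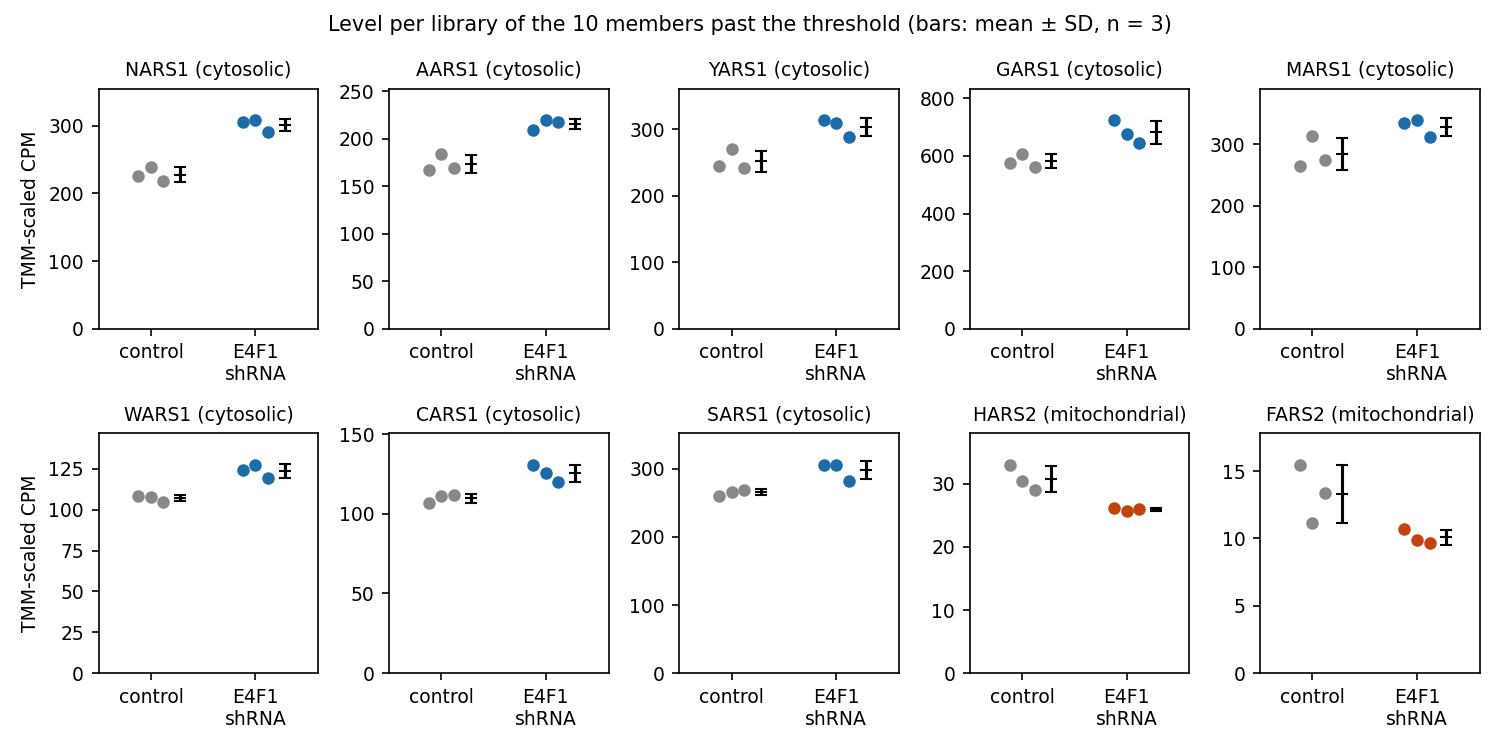
TMM-scaled CPM in each library of the 10 members with an adjusted p under 0.05, with control libraries in grey, E4F1 shRNA libraries in colour and bars for mean ± SD (n = 3). MARS1 is the one riser whose groups overlap; FARS2, at 9.68 to 15.5 CPM, is the lowest of the 10.

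On the same build, AARS1 lies on chromosome 16 (70252295 to 70289543, minus strand), YARS1 on chromosome 1 (32775237 to 32818153, minus), GARS1 on chromosome 7 (30594681 to 30634033, plus) and MARS1 on chromosome 12 (57475445 to 57517569, plus). WARS1 lies on chromosome 14 (100333788 to 100376805, minus), CARS1 on chromosome 11 (3000922 to 3057613, minus) and SARS1 on chromosome 1 (109213918 to 109238169, plus). The 2 mitochondrial genes that fell, FARS2 and HARS2, lie on chromosome 6 (5261044 to 5829192, plus) and chromosome 5 (140691426 to 140699318, plus). The 10 called genes are thus on 9 chromosomes, with YARS1 and SARS1 far apart on the same one.

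The other 11 cytosolic genes did not pass the test. FARSB, the beta subunit of phenylalanyl-tRNA synthetase, had a log2 fold change of 0.15 (adjusted p = 0.143), whereas FARSA, its alpha subunit, had -0.17 (adjusted p = 0.0972). The 2 subunits form one enzyme; the difference between their changes was not tested. IARS1, the isoleucyl enzyme, was at 455, 479 and 448 CPM in the controls and 509, 515 and 481 CPM after E4F1 shRNA, which did not overlap (log2 fold change 0.12, adjusted p = 0.0877). QARS1, which charges glutamine, was at 198, 192 and 201 CPM against 183, 182 and 174 CPM, lower without overlap (log2 fold change -0.14, adjusted p = 0.0525). VARS1, the valyl enzyme, had -0.14 (adjusted p = 0.105). TARS1 had 0.10 (adjusted p = 0.206). RARS1, EPRS1, KARS1, LARS1 and HARS1, which charge arginine, glutamate with proline, lysine, leucine and histidine, lay between -0.05 and 0.01, with adjusted p-values from 0.555 to 0.919.

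A set of 11 cytosolic synthetases that are often listed as ATF4-dependent was drawn up from general knowledge, with earlier results of these data known, so its count is not independent evidence of a direction. It held AARS1, CARS1, EPRS1, GARS1, IARS1, MARS1, NARS1, SARS1, TARS1, WARS1 and YARS1. Of these 11, 8 rose and 0 fell, with a median log2 fold change of 0.21. Of all genes, 14.4% rose and 14.4% fell. With the cell cycle score in the fit 1 of the 11 rose, and with 1 library left out at a time 5 to 9 rose. Of the 8 cytosolic genes outside the ATF4 list, 0 rose and 0 fell, with 0 higher and 3 lower at an unadjusted p under 0.05, 0 called by DESeq2 and a median of -0.047. The mean log2 CPM of the 11, relative to the 6 libraries, was -0.129, -0.041 and -0.130 in control libraries 1 to 3 and 0.133, 0.128 and 0.039 in E4F1 shRNA libraries 1 to 3. The groups were apart, with control 2 and E4F1 shRNA 3 nearest each other. For the 8 others the values were -0.0079, 0.042 and 0.046 against -0.012, 0.017 and -0.085, and the groups overlapped. Summed over all 19 cytosolic genes, the level was 4704, 4969 and 4740 CPM against 5360, 5312 and 4969 CPM. E4F1 shRNA library 3, at 4968.6 CPM, and control library 2, at 4969.34 CPM, met there. The summed level thus did not fully separate the groups, though E4F1 shRNA libraries 1 and 2 lay above every control. CPM is a share of each library and not an amount per cell.

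**Figure D3:**
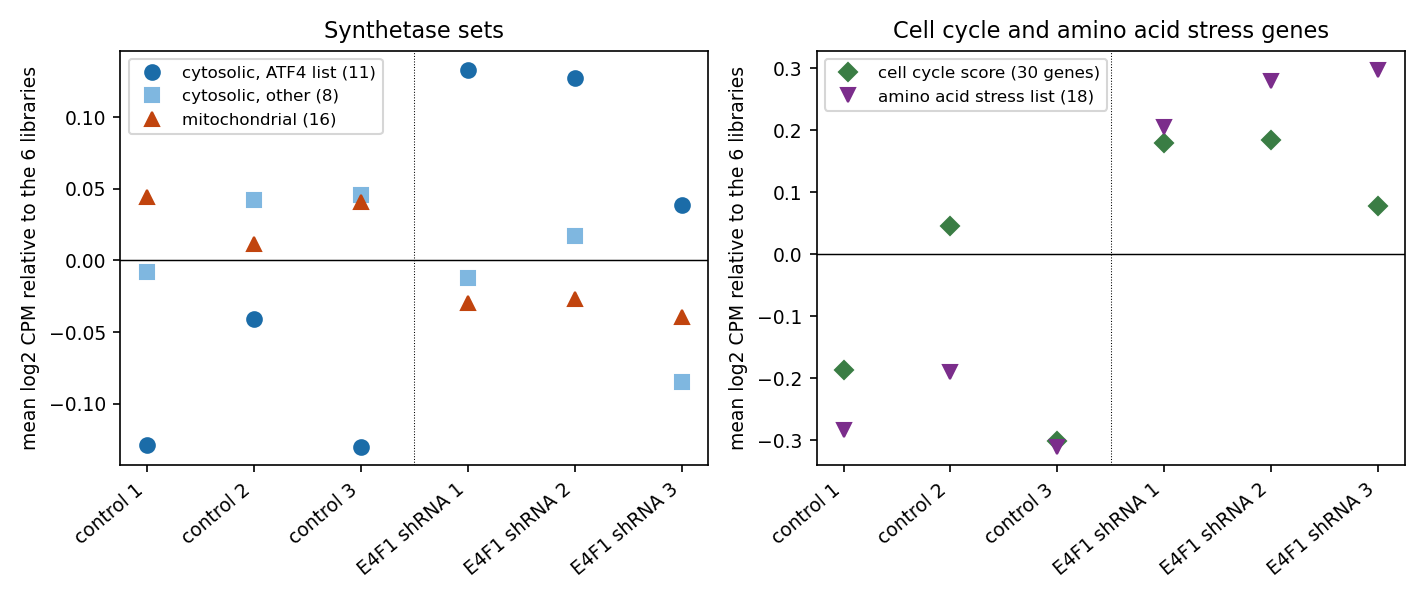
Mean log2 CPM of gene sets in each library, relative to the mean of the 6 libraries; the left panel shows ATF4-listed cytosolic (11), other cytosolic (8) and mitochondrial (16) synthetases, the right panel the cell cycle score (30 genes) and the amino acid stress list (18 genes). ATF4-listed synthetases are at -0.130 to -0.041 in the controls and 0.039 to 0.133 after E4F1 shRNA, and the cell cycle score moves with the same libraries.

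Promoter sequence was compared across the members because ATF4 binds, with a C/EBP partner, elements that contain TTGCATCA. RefSeq windows (GRCh38.p14) from upstream of each start site to just downstream of it were at hand for 33 of the 38 members. The motif, searched on both strands, was in 6 of 16 cytosolic genes (37.5%), in 0 of 14 mitochondrial genes and in 0 of 3 scaffold genes, against 1.08% of the 27305 genes with a window. Of the protein-coding genes tested that had a window, 0.828% held it. The 6 sites are shown 5′ to 3′ on the strand of the gene, with the motif in capitals; the NARS1 site holds it on the opposite strand, where it reads TGATGCAA.
NARS1: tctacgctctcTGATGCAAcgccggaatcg
AARS1: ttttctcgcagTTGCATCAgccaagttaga
MARS1: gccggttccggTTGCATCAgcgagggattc
CARS1: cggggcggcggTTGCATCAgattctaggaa
IARS1: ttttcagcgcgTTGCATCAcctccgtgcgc
TARS1: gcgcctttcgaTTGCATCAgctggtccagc

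These windows lie at chr18:57621804-57621833 (NARS1, minus strand), chr16:70289675-70289704 (AARS1, minus strand), chr12:57488053-57488082 (MARS1, plus strand), chr11:3057407-3057436 (CARS1, minus strand), chr9:92293692-92293721 (IARS1, minus strand) and chr5:33440956-33440985 (TARS1, plus strand). The motif began within 15 bases of an annotated start in NARS1, MARS1, CARS1, IARS1 and TARS1, and at position -187 in AARS1. Of the 6 genes with the motif, 4 rose (NARS1, AARS1, MARS1 and CARS1), with a median log2 fold change of 0.20. Of the 10 cytosolic genes with a window and no motif, 3 rose, with a median of -0.0030. Among all protein-coding genes tested that had a window, 88 held the motif, and 27 of them (30.7%) rose while 5 (5.68%) fell. These 88 include members, and with the members left out 82 held it, of which 23 (28%) rose and 5 (6.1%) fell. Among the 10546 without the motif, 16.9% rose and 15.4% fell. The presence of these letters is a description of the windows and not evidence of binding.

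A looser pattern, TGATGNAA with N any base, contains the reverse complement of TTGCATCA. It added GARS1 among cytosolic genes and YARS2 among mitochondrial ones, for 7 of 16 (43.8%) and 1 of 14 (7.14%). The share was 4.46% of all genes with a window and 3.01% of the protein-coding genes tested. TGACGTNA, a pattern of the kind bound by E4F1 and by CREB-type factors, was in 0 of 16 cytosolic genes, in 1 of 14 mitochondrial genes (NARS2) and in 1 of 3 scaffold genes (AIMP2). Its share was 3.63% of all genes with a window and 5.67% of the protein-coding genes tested. These 4 sites are shown because each is the match of its pattern that the first 6 did not cover, with the motif in capitals.
GARS1: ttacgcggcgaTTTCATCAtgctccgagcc
YARS2: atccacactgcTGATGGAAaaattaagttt
AIMP2: ggtcgacttcgTGACGTCAaagagcctggg
NARS2: ccgtagcgtgaTGACGTAAgcggcgttggc

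They lie at chr7:30594834-30594863 (GARS1, plus strand), chr12:32756076-32756105 (YARS2, minus strand), chr7:6009192-6009221 (AIMP2, plus strand) and chr11:78574837-78574866 (NARS2, minus strand). Of their genes GARS1 rose, and YARS2, AIMP2 and NARS2 did not pass the test.

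The heptamer CTTATCT was also searched in 3′ UTRs. Of the genes tested that have an annotated 3′ UTR, 1524 (11.6%) held it in the longest one. Of those, 38.6% rose and 8.07% fell, against 13.8% and 16.5% of the 11565 without it. The heptamer was chosen from earlier results of these data, so these shares are not independent evidence. The UTRs that held it were longer (median 3376 against 1239 bases), and the part of length in the difference was not tested. Among the members the heptamer occurred in NARS1 and NARS2, the pair for asparagine, and in no other.
NARS1: tactccagtaaCTTATCTttctgtccttt
NARS2: tgtgataaatcCTTATCTcattttcagta

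The NARS1 match lies at chr18:57601266-57601294 and the NARS2 match at chr11:78436217-78436245, both on the minus strand (GRCh38, GENCODE 29 transcripts). NARS1 rose, whereas NARS2 was at 52.7, 52.4 and 52.3 CPM in the controls and 52.3, 56.2 and 50.4 CPM after E4F1 shRNA (log2 fold change 0.01, adjusted p = 0.891, edgeR).

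The cytosolic genes were also counted by their place in the multisynthetase complex, where 14.4% of all genes rose. Of the 7 cytosolic members known to sit in the complex (EPRS1, IARS1, KARS1, LARS1, MARS1, QARS1 and RARS1), 1 rose, MARS1. That is 14.3%, near the share of all genes, and the median log2 fold change of the 7 was -0.016. Of the 12 cytosolic members outside it, 7 rose (58.3%), with a median of 0.18. The difference between these groups was not tested, and membership overlaps with the ATF4 list. The 3 scaffold genes did not pass. AIMP1, which binds tRNA and the arginyl enzyme, was at 94.2, 93.1 and 93.1 CPM against 89.6, 91.0 and 91.0 CPM (log2 fold change -0.05, adjusted p = 0.543, edgeR).

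AIMP2, the core scaffold of the complex, was at 96.6, 119 and 107 CPM in the controls and 96.0, 99.9 and 90.0 CPM after E4F1 shRNA, with overlap (log2 fold change -0.17, adjusted p = 0.0701, edgeR). Counted without regard to strand it passed, at -0.24 (adjusted p = 0.0453); its exons overlap those of EIF2AK1, an eIF2 kinase gene on the opposite strand. EEF1E1, which carries the methionyl enzyme, was at 20.1, 20.3 and 20.8 CPM against 22.8, 25.7 and 21.4 CPM. These were higher without overlap but did not pass (log2 fold change 0.19, adjusted p = 0.106, edgeR). EEF1E1 shares exon sequence with EEF1E1-BLOC1S5 on the same strand, and reads in that sequence count for neither gene. By catalytic class, 4 of 18 class I genes rose and 0 fell, and 4 of 16 class II genes rose and 2 fell. Of all genes, 14.4% rose and 14.4% fell. Both classes include mitochondrial genes, EPRS1 was counted in neither, and the difference between the classes was not tested.

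Among the mitochondrial enzymes, FARS2, the phenylalanyl enzyme of the matrix, was at 15.5, 11.2 and 13.3 CPM in the controls and 10.7, 9.86 and 9.68 CPM after E4F1 shRNA. The groups were apart but the controls were spread widely, on 181 to 232 reads per library. Its log2 fold change was -0.40 (SE 0.121, adjusted p = 0.0191, edgeR), a 1.32-fold lower level. HARS2, which charges histidine in mitochondria, had 495, 493 and 452 reads against 420, 432 and 426 reads. Its level was 30.8 ± 2.06 against 25.9 ± 0.253 CPM (SD, n = 3), 1.19-fold lower without overlap (log2 fold change -0.25, SE 0.075, adjusted p = 0.0191, edgeR). Both calls were lost without control library 1, where FARS2 had an adjusted p of 0.143 and HARS2 of 0.125, and both were also lost without E4F1 shRNA library 2 (0.0782 and 0.0812) and without library 3 (0.0712 and 0.0543). HARS2 was lost without E4F1 shRNA library 1 as well (0.0601). HARS2 shares exon sequence with ZMAT2 on the same strand and with HARS1 on the other, and reads in the ZMAT2 overlap count for neither gene.

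CARS2, the cysteinyl enzyme, was at 25.3, 25.8 and 30.3 CPM against 23.7, 22.3 and 23.6 CPM (log2 fold change -0.22, adjusted p = 0.0556, edgeR). YARS2, the tyrosyl enzyme, was at 37.9, 35.6 and 39.8 CPM against 35.0, 29.8 and 33.6 CPM (log2 fold change -0.21, adjusted p = 0.0542, edgeR). VARS2, the valyl enzyme, was at 36.0, 38.5 and 36.2 CPM against at most 35.3 CPM (log2 fold change -0.17, adjusted p = 0.108, edgeR). In all 3 the groups were apart and lower after E4F1 shRNA, and none passed the test. VARS2 shares exon sequence with GTF2H4 on the same strand, and reads in that sequence count for neither gene. Of the 16 mitochondrial genes, 6 were lower and 1 was higher without overlap; of all genes 41.8% did not overlap between groups, 21.0% lower and 20.7% higher. The higher one was RARS2, the arginyl enzyme, with a log2 fold change of 0.09 (adjusted p = 0.373), and the sixth lower one was TARS2 at -0.06.

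The remaining mitochondrial genes were close to no change. AARS2, LARS2 and IARS2, which charge alanine, leucine and isoleucine, had log2 fold changes of 0.07, 0.06 and 0.05. PARS2, NARS2, SARS2, MARS2, EARS2 and WARS2 lay between -0.03 and 0.02. SARS2, the seryl enzyme, had 31 to 40 reads per library and a standard error of 0.199, so a change of the size seen in NARS1 would not have been well resolved there. Its exons overlap an unnamed gene on the same strand. Summed over the 16 genes, the mitochondrial set was at 635, 625 and 617 CPM in the controls and 617, 620 and 610 CPM after E4F1 shRNA, which overlapped. As a mean of log2 CPM relative to the 6 libraries, which gives each gene equal weight, it was at 0.044, 0.012 and 0.041 against -0.030, -0.027 and -0.039, which did not.

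Set side by side within amino acids, the cytosolic enzyme had a higher log2 fold change than its mitochondrial counterpart in most pairs. For FARSA, HARS1 and VARS1, at -0.17, -0.05 and -0.14, this was a smaller decrease and not a rise. There were 17 pairs, in which EPRS1 stands against both EARS2 and PARS2, and FARSA and FARSB both against FARS2; GARS1, KARS1 and QARS1 had no counterpart among the members. In 13 of the 17 pairs the mean log2 ratio of the cytosolic to the mitochondrial CPM was higher after E4F1 shRNA. In 9 of them the libraries did not overlap, and no pair was lower without overlap. Of all single genes tested, 41.8% did not overlap between groups. No such share was computed for ratios of 2 genes, so the count of 9 has no background to be read against. For asparagine, the log2 ratio was 2.10, 2.19 and 2.06 in the controls and 2.54, 2.45 and 2.53 after E4F1 shRNA, a shift of 0.39 that came from NARS1.

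The shift was 0.54 for FARSB over FARS2, 0.48 for tyrosine and 0.41 for cysteine, and in these 3 pairs the cytosolic log2 fold change was positive and the mitochondrial one negative. FARSB itself did not pass the test (adjusted p = 0.143, edgeR). For FARSA, the other subunit of the same enzyme, the shift over FARS2 was 0.22, with overlap, and its own log2 fold change was -0.17. For alanine and tryptophan it was 0.24 each, for methionine 0.21, for histidine 0.20, and for threonine and serine 0.16 each. The histidine shift came from the fall of HARS2, since HARS1 had a log2 fold change of -0.05. The 4 pairs with a lower mean ratio were EPRS1 with EARS2, EPRS1 with PARS2, arginine and leucine, at -0.01, -0.03, -0.08 and -0.10. The pairs share their libraries and some share a gene, so no test was made over them.

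**Figure D4:**
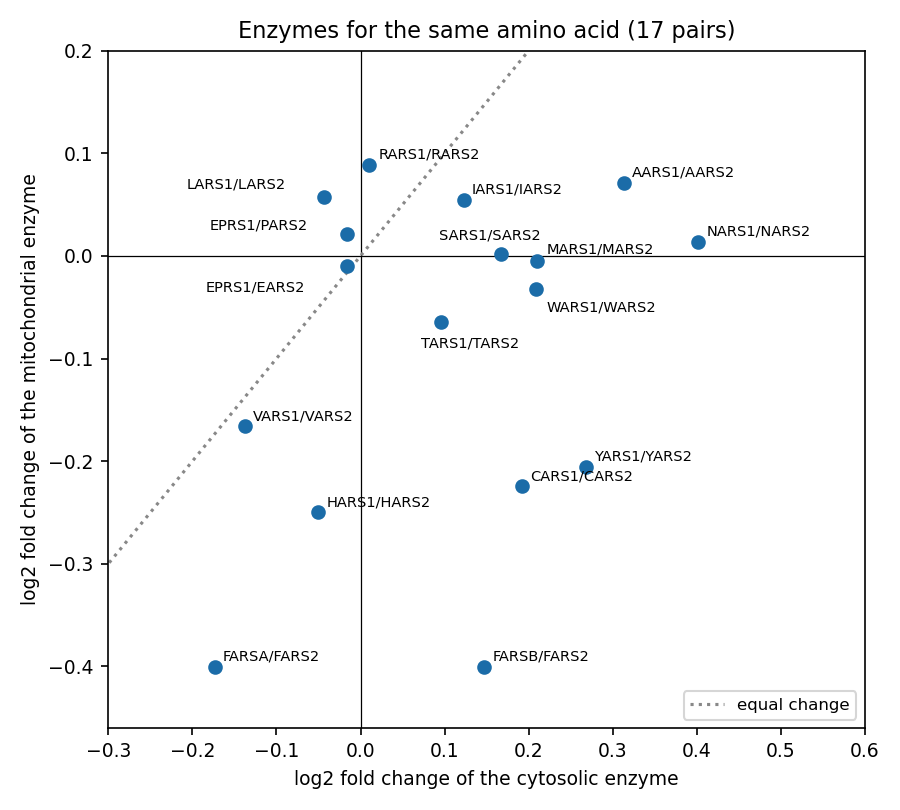
Log2 fold change of the cytosolic enzyme (horizontal) against that of the mitochondrial enzyme for the same amino acid (vertical), E4F1 shRNA over control shRNA, 1 point per pair; the dotted line marks equal change. 13 of the 17 pairs lie below the line, NARS farthest to the right at 0.40 and the pairs with FARS2 lowest at -0.40.

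Levels of different genes were compared per length, as control CPM per kilobase of merged exons. GARS1 was the highest synthetase mRNA at 140, followed by TARS1 at 103, and HARS1 the lowest cytosolic one at 8.86, with a cytosolic median of 40.4. The mitochondrial median was 7.07, from 0.713 for SARS2 to 46.6 for IARS2, with YARS2 the next highest at 17.6. The genes that rose were spread over the cytosolic range, from CARS1 at 10.9 to GARS1 at 140. FARS2, at 2.76, was among the lowest mitochondrial mRNAs. Merged exons count every annotated transcript, so a gene with many alternative exons has too low a value on this scale. Reads that a gene shares with another on the same strand are left out, as for SARS2, whose value may therefore be too low.

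Genes that work before and after tRNA charging were also counted, where 14.4% of all genes rose and 14.4% fell. Of 31 genes of cytosolic tRNA processing, export and editing, 8 rose and 5 fell, with a median log2 fold change of 0.059. With the cell cycle score in the fit 1 of the 31 rose and 1 fell, and with 1 library left out at a time 3 to 9 rose. TSEN15, a structural subunit of the tRNA splicing endonuclease, rose by 0.57 on the log2 scale (adjusted p = 6.59e-06, edgeR), and RPP14, a subunit of RNase P, which trims the 5′ end of precursor tRNA, rose by 0.38 (adjusted p = 0.00128). In the eEF1 complex, which delivers charged tRNA to the ribosome, 2 of 3 genes tested fell: EEF1B2 by 0.28 (adjusted p = 0.0012) and EEF1D by 0.15 (adjusted p = 0.0342), both on the log2 scale.

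The mitochondrial lists held few changes, set beside the 14.4% of all genes that rose and the 14.4% that fell. Of 13 genes of mitochondrial tRNA maturation and modification, 1 rose and 0 fell, with 2 lower at an unadjusted p under 0.05 and 0 lower by DESeq2. The one was TRMU, which thiolates the wobble uridine of mitochondrial tRNAs, at 47.1, 52.5 and 49.1 CPM in the controls and 69.0, 65.3 and 65.2 CPM after E4F1 shRNA (log2 fold change 0.42, adjusted p = 0.000103, edgeR). GATC, a subunit of the amidotransferase that makes mitochondrial glutaminyl-tRNA in place of a dedicated synthetase, was the 1 of 3 that rose (log2 fold change 0.21, adjusted p = 0.0189). None of 11 mitochondrial translation factors passed edgeR's test or DESeq2's, with 1 higher and 2 lower at an unadjusted p under 0.05; the smallest adjusted p was 0.0556, for the elongation factor GFM1 at -0.18.

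In a list of 18 genes of the amino acid stress response without synthetases, 14 rose and 0 fell, with none lower at an unadjusted p under 0.05 or by DESeq2, and the median log2 fold change was 0.49. Of all genes, 14.4% rose and 14.4% fell. DDIT4, an inhibitor of mTORC1 signalling, rose by 1.33 (adjusted p = 1e-08), VLDLR, a lipoprotein receptor, by 0.81 (adjusted p = 3.24e-07) and PCK2, the mitochondrial phosphoenolpyruvate carboxykinase, by 1.22 (adjusted p = 7.16e-07), all on the log2 scale by edgeR. ATF4 mRNA itself was at 348, 383 and 348 CPM in the controls and 454, 465 and 431 CPM after E4F1 shRNA (log2 fold change 0.32, adjusted p = 0.000376); it is named here because it gives the synthetase list its name. The median of the 11 ATF4-listed synthetases, 0.21, had the same sign as that of this list and was smaller. The list was also drawn up with earlier results of these data known.

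Cell cycle genes moved with the same libraries. Of 15 DNA replication genes 8 rose, led by RFC4 at a log2 fold change of 0.85 (adjusted p = 3.04e-05), ORC6 at 0.68 and RRM2 at 0.54, and of 15 mitosis genes 10 rose, led by CENPE at 0.43, CCNA2 at 0.47 and KIF11 at 0.48. No gene of either list fell, with none lower at an unadjusted p under 0.05 or by DESeq2. Of all genes, 14.4% rose and 14.4% fell. The mean log2 CPM of these 30 genes relative to the 6 libraries was -0.187, 0.0457 and -0.300 in the controls and 0.179, 0.185 and 0.0773 after E4F1 shRNA. Control library 2 stood nearest the E4F1 shRNA libraries, as it did for the ATF4-listed synthetases.

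With this score added to the fit as a covariate, 3.27% of all genes rose and 2.32% fell. Of the cytosolic genes 1 then rose, NARS1, at a log2 fold change of 0.28 (adjusted p = 0.0252, edgeR), and the cytosolic median went from 0.12 to 0.0089. AARS1 was at 0.22 (adjusted p = 0.109), WARS1 and CARS1 at 0.16 (adjusted p = 0.302 and 0.315), SARS1 at 0.14 (adjusted p = 0.37), YARS1 and GARS1 at 0.11 (adjusted p = 0.492 and 0.512) and MARS1 at 0.01 (adjusted p = 0.967). HARS2 no longer passed, at -0.27 (adjusted p = 0.21), nor did FARS2, at -0.17 (adjusted p = 0.671), and AIMP2 fell, at -0.36 (adjusted p = 0.0131). Of the 18 amino acid stress genes, 11 still rose. The score itself differs between the groups, so a change of the group and a change that goes with the cell cycle score cannot be told apart for most members.

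**Figure D5:**
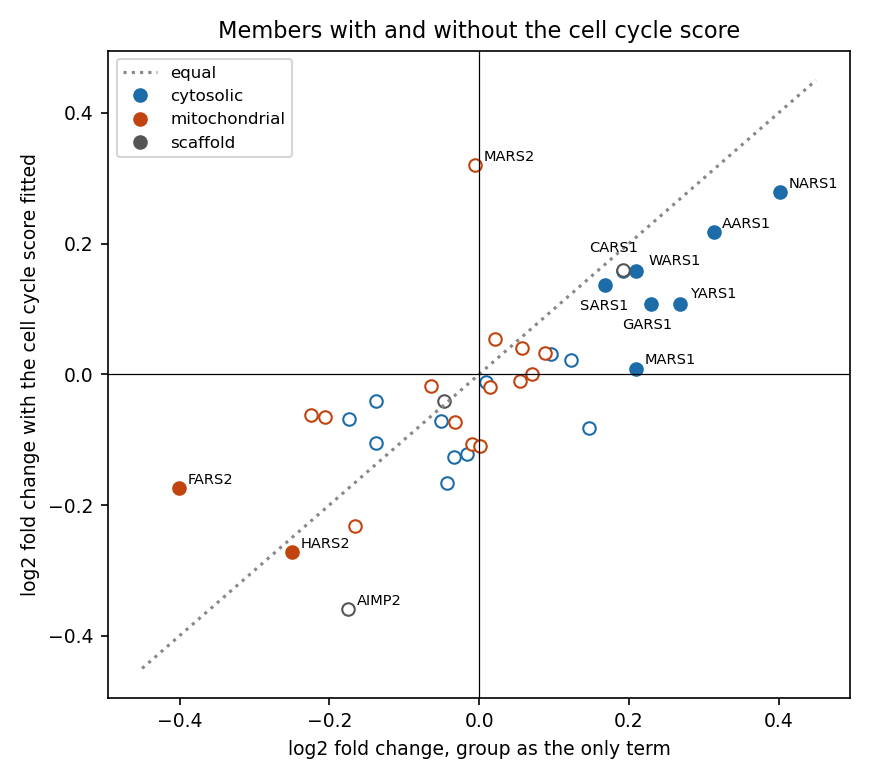
Log2 fold change of each member with group as the only term (horizontal) and with the cell cycle score also fitted (vertical); blue is cytosolic, orange mitochondrial, grey scaffold, filled points passed the test with group as the only term, and the dotted line marks equal values. NARS1 goes from 0.40 to 0.28 and MARS1 from 0.21 to 0.01, while MARS2 goes from -0.01 to 0.32 (adjusted p = 0.229).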

How the data were processed

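Polyadenylated RNA of 6 U2OS libraries (3 control shRNA, 3 E4F1 shRNA) was sequenced, per the labels. The deposited values are raw read counts of genes in STAR's output format. Per the submitters' processing notes, bcl2fastq 2.20, STAR 2.5.1b and GRCh38 were used; no source here names the annotation release. The column for the reverse strand was taken: its libraries sum to 14947085 to 16892139 reads, and those of the forward strand to 885046 to 977742. Reads in no gene (27.1% to 31.7%) stayed out of library sizes. Of 58219 identifiers, 57836 were named through GENCODE 29, which also gave loci and exon lengths. Reads that overlap 2 genes on 1 strand are in neither gene's count.

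The test was edgeR's (version 4.0.16, R 4.3.3) on these counts: filterByExpr, TMM, the quasi-likelihood F-test, group as the only term, two-sided, Benjamini-Hochberg over 15765 genes, threshold 0.05. The standard error is the log2 fold change divided by the square root of F. An exact permutation test of 3 against 3 cannot go below 0.1, so none was used. On simulated data for this comparison (15765 genes), 71% of genes changed 1.5-fold and 91% of genes changed 2-fold were recovered, so changes of the size reported here can be missed. Alternatives were DESeq2 1.42.0, limma-voom 3.58.1, other scalings and filters, counts ignoring strand, a replicate block, a cell cycle score and leaving out each library.

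The members and all gene lists were chosen with earlier results of these data known. Named were E4F1, all members, with values per library for those past the threshold and up to 5 others a set by adjusted p, and up to 3 genes of each other list. Some genes that this rule would name are not reported here. Marker lists gave summed levels of 2359 to 2647 CPM for the osteosarcoma line (1 of 8 genes rose, 2 fell), 21.0 to 28.2 CPM for epithelial genes (of 4 tested, 1 rose and 2 fell), 1.48 to 2.98 CPM for blood genes (2 of 6 at 0 in every library) and 3.59 to 4.21 CPM for endothelial genes; the last 2 lists had no gene called. Promoter windows came from RefSeq (GRCh38.p14). Protein sequences were not used here.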

Additional observations from a re-analysis of the deposited data

How the results depend on the processing

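In none of the 15 alternative fits did a called member change direction. The counts of members called were 8 and 0 (cytosolic, rose and fell), 0 and 2 (mitochondrial) and 0 and 0 (scaffold) also with DESeq2 size factors, with library totals, without a low-count filter and with DESeq2's Wald test. A filter of 1 CPM in 3 libraries and limma-voom each added 1 cytosolic gene that fell, QARS1. Counts ignoring strand added 1 scaffold gene that fell, AIMP2. YARS2 was added, for 3 mitochondrial genes that fell, with that filter (adjusted p = 0.0494) and with counts ignoring strand (adjusted p = 0.0474), both by edgeR. The cell cycle score as a covariate gave 516 genes that rose and 366 that fell, 1 cytosolic gene that rose, 0 mitochondrial genes that fell, 1 scaffold gene that fell, and medians of 0.0089 (cytosolic) and -0.041 (mitochondrial). Leaving out 1 library at a time gave 1605 to 2833 genes that rose and 1419 to 2537 that fell; 5 to 10 cytosolic genes that rose and 0 to 1 that fell, with a median of 0.10 to 0.16; 0 mitochondrial genes that rose and 0 to 4 that fell, with a median of -0.028 to 0.0012; and 0 scaffold genes that rose and 0 to 1 that fell, with a median of -0.050 to -0.029. NARS1 passed in 15 of 15 alternatives, AARS1, YARS1, GARS1 and WARS1 in 14, CARS1, SARS1 and FARS2 in 11, and MARS1 and HARS2 in 10. Deviations from the group means correlated weakly between same-numbered libraries of the 2 groups (0.00704, 0.0471 and 0.0477). Not every library correlated best with its own number. The labels do not say that equal numbers were handled together, and values this weak cannot decide it. A fit with the replicate number as a block gave 2419 genes that rose and 2446 that fell, 8 cytosolic genes that rose, 4 mitochondrial genes that fell (CARS2 and YARS2 added) and 1 scaffold gene that fell (AIMP2). SARS2, at 31 to 40 reads per library, had little depth for a small change.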
